A study of Mus musculus with 2 samples.

Results

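Haem biosynthesis is the chain of enzymes that builds protoporphyrin from glycine and succinyl-CoA and puts iron into it. The 8 genes described here encode enzymes of this chain: Alas1 and Alas2 for the first step, then Alad, Uros, Urod, Cpox, Ppox and Fech in the order in which their enzymes act. They were chosen by name, and each was represented by its brightest probe. The choice was made with their difference between the pools already known, so the differences below are a description and support nothing by themselves. The 8 genes are among 20649 gene symbols named by a probe, of which 16774, all 8 included, were clearly above background in the SiO2 pool, the PBS pool or both.

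Gene expression was measured on 2 one-colour Agilent arrays, 1 array for each pool of mouse spleen RNA. The first pool came from spleens remodelled by treatment with silica (SiO2), the second from spleens treated with phosphate-buffered saline (PBS). Per the labels and the series design, each pool held 5 spleens, the mice were female, and spleens were collected on day 19 counted from the first injection. Strain, age and dose are not given in the sources used here. Per the labels' protocols, RNA of both pools was prepared with a blood kit that lyses red and white cells separately, and globin message was depleted, so red cell RNA in both pools had passed these steps. Their part in the results was not tested. With 1 array per group there is no replicate, no test and no p-value, and the number of arrays limits the precision.

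Haem is the iron-carrying group of haemoglobin and the cytochromes. Its synthesis starts in the mitochondrion, passes through the cytosol and ends in the mitochondrion. The first enzyme, aminolevulinate synthase, exists in a housekeeping form (Alas1), which haem itself represses, and an erythroid form (Alas2), whose gene lies on the X chromosome and whose translation depends on iron. The mouse spleen makes red cells beside the bone marrow, so both forms can be present in spleen RNA.

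The enzymes of the haem pathway were higher in the SiO2 pool, with the exception of the housekeeping form of the first one. Of the 8 members, 7 exceeded the PBS pool by 2-fold or more in the SiO2 pool and 0 fell short of it by as much. Among all 16774 genes above background, 6.62% were higher by 2-fold or more and 3.69% were lower by as much. Since the members were chosen on this contrast, the first share is only the background against which their count stands. The 7 lay between 2.49-fold and 3.87-fold higher, none reached 4-fold (0.948% of all genes did), and Alas1 differed by -0.03 on the log2 scale. All differences are log2 signal in the SiO2 pool minus log2 signal in the PBS pool, each set against its own array's 75th percentile. The median difference over the 8 members was 1.51, against 0.030 over all genes.

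The 75th percentile of the signal was 469 on the SiO2 array and 670 on the PBS array, a log2 shift of -0.51 that the scaling removes. The split of genes past 2-fold was 1110 higher and 619 lower with this scaling, 407 higher and 2692 lower without it, and 2090 higher and 301 lower when the SiO2 array was shifted to centre lymphocyte (B and T cell) markers on 0. Well above background were 74.9% of 43020 spots on the SiO2 array and 75.5% on the PBS array, and no spot was saturated. The reference genes Gapdh, Actb and Hprt differed by 0.28, -0.25 and 0.14, but their directions depend on the scaling: unscaled, all were below 0 (-0.23, -0.76 and -0.37), and with lymphocyte markers centred on 0 all were above it (0.59, 0.059 and 0.45). Repeated spots of 300 probes gave a technical spread of the log2 difference with a median standard deviation of 0.061. For 3418 genes with 2 probes above background on both arrays, the gap between the differences of their probes was 0.27 in the median gene and 0.76 at the 90th percentile. The error given with each signal below is the scanner software's own error of a spot. It was nearly the same share of the signal for the brightest probe of every member, bright or dim. It came to 0.20 on the log2 scale for the difference of each member's probe, and it covers neither animals nor pools nor labelling.

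The isoenzymes of the first step differed from each other. Alas2, the erythroid aminolevulinate synthase, had a processed signal of 20948 ± 2095 in the SiO2 pool and 8741 ± 874 in the PBS pool (software error of 1 spot each). After scaling it was 3.42-fold higher, a log2 difference of 1.77. Alas1, the housekeeping aminolevulinate synthase, had a signal of 2176 ± 218 in the SiO2 pool and 3176 ± 318 in the PBS pool by its brighter probe. That unscaled gap is close to the shift between the arrays, and after scaling Alas1 differed by -0.03. Its dimmer probe read 99.6 in the SiO2 pool and 123 in the PBS pool, a scaled log2 difference of 0.21. Both Alas1 probes thus lay within 2-fold of the PBS pool, with a gap of 0.24 between them, against the median of 0.27 for genes with 2 probes.

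The Alas2 difference exceeded that of Alas1 by 1.81 on the log2 scale, or 3.50-fold. A shift of 1 array against the other moves both genes alike and leaves this gap as it is. The direction of Alas1 itself is not settled, since it was 0.28 with lymphocyte markers centred on 0, 0.088 as the mean of its probes and -0.55 without scaling. Alas2 stayed past 2-fold under the same settings, with 1.26 without scaling as its lowest value. Levels of different probes are not comparable, so the ratio of Alas2 to Alas1 message within a pool was not read.

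**Figure D1:**
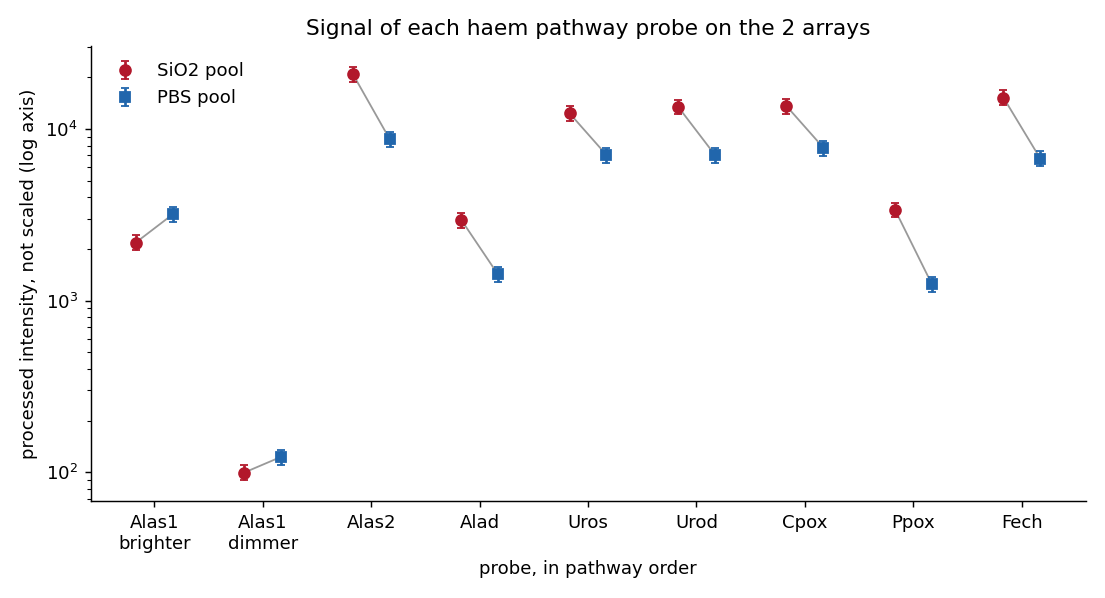
Processed intensity of each probe of the 8 haem biosynthesis genes (log axis, not scaled between arrays) in the SiO2 pool (red circles) and the PBS pool (blue squares), 1 array each. Bars are the scanner software's error of the spot; both Alas1 probes are lower in the SiO2 pool and every other probe is higher, before any scaling.

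The cytosolic enzymes follow. Alad, aminolevulinate dehydratase, condenses aminolevulinate into the pyrrole porphobilinogen. Its signal was 2959.8 ± 296 in the SiO2 pool and 1419 ± 142 in the PBS pool, and it was 2.98-fold higher after scaling (1.57 on the log2 scale).

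Uros, uroporphyrinogen III synthase, forms the uroporphyrinogen III ring. Its signal was 12318 ± 1232 in the SiO2 pool and 7047 ± 705 in the PBS pool, 2.49-fold higher after scaling (1.32). Urod, uroporphyrinogen decarboxylase, removes carboxyl groups from the side chains of the ring. Its signal was 13474 ± 1347 in the SiO2 pool and 7053 ± 705 in the PBS pool, 2.73-fold higher after scaling (1.45). Uros and Urod thus sat toward the low end of the members that were higher.

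The last enzymes act in the mitochondrion. Cpox, coproporphyrinogen oxidase of the intermembrane space, had a signal of 13581 ± 1358 in the SiO2 pool and 7769 ± 777 in the PBS pool. It was 2.49-fold higher after scaling (1.32), the same as Uros to 2 decimals. Ppox, protoporphyrinogen oxidase of the inner membrane, had a signal of 3386 ± 339 in the SiO2 pool and 1248 ± 125 in the PBS pool. At 3.87-fold higher (1.95) it had the largest difference of the 8 members. Fech, ferrochelatase, inserts iron into protoporphyrin to make haem. Its signal was 15224 ± 1522 in the SiO2 pool and 6715 ± 671 in the PBS pool, 3.23-fold higher after scaling (1.69).

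From high to low, the differences ran Ppox, Alas2, Fech, Alad, Urod, Cpox and Uros, and then Alas1 after a gap of 1.35. Among the first 7 no neighbours were more than 0.18 apart. That is less than the software error of 0.29 for the gap between a pair of such differences. Repeated spots of a probe gave a smaller spread, a median standard deviation of 0.061. The gap between 2 probes of a gene was 0.27 in the median gene. The whole span of the first 7 members was 0.63. Since 7 of the 8 members had 1 probe only, their order among themselves is not resolved by these arrays. Of these 7, the 4 mitochondrial enzymes Alas2, Cpox, Ppox and Fech had a median difference of 1.73. The 3 cytosolic ones, Alad, Uros and Urod, had a median of 1.45. Alas1, whose enzyme is mitochondrial too, differed by -0.03 and was left out of these medians. The ranges of these groups overlapped.

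Among all 16774 genes ordered by their difference, Ppox stood at rank 167 from the highest, Alas2 at 238 and Fech at 282. Alad stood at rank 360, Urod at 457, Cpox at 592 and Uros at 593, so each of the 7 was exceeded by at most 3.53% of genes. Alas1 stood at rank 9197, near the middle. Without any scaling the 7 were still higher in the SiO2 pool, by 1.75-fold for Uros and Cpox to 2.71-fold for Ppox, and 4 of the 8 members, Ppox, Alas2, Fech and Alad, were then at least 2-fold higher, against a background of 2.43% of genes. In the authors' deposited values, which held 7 of the 8 members, the differences were 1.90 for Ppox, 1.66 for Alas2, 1.54 for Alad, 1.36 for Urod, 1.23 for Cpox, 1.22 for Uros and -0.06 for Alas1.

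**Figure D2:**
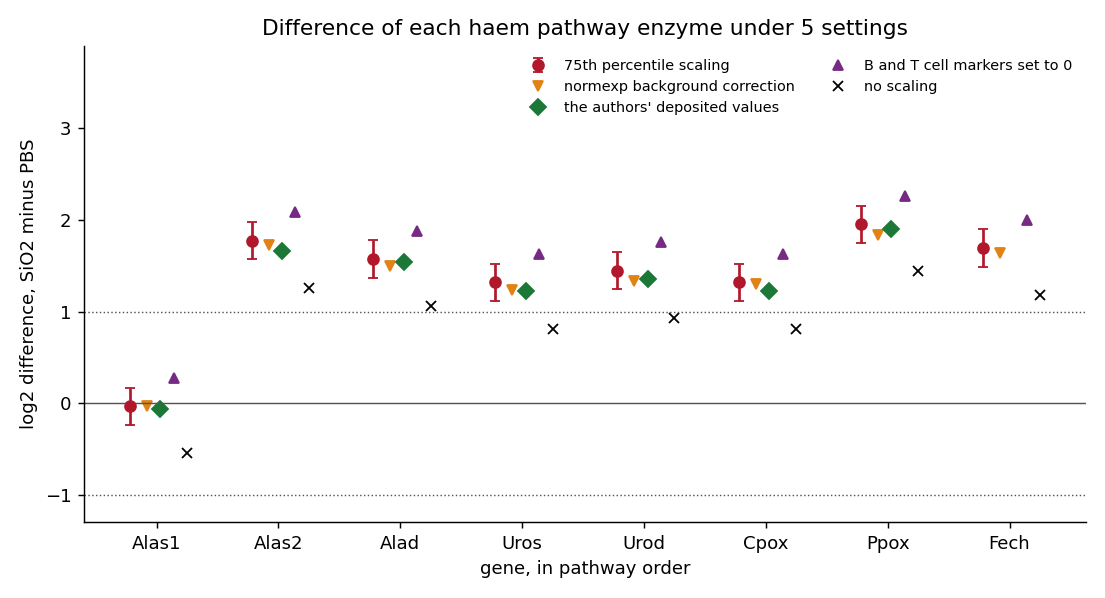
Log2 difference (SiO2 minus PBS) of each of the 8 haem biosynthesis genes in pathway order; the error bar on the 75th percentile value is the scanner software's error of the difference, and the other symbols are the same gene under other settings. Dotted lines mark 2-fold; every gene but Alas1 stays above 0 under each setting shown, and Uros, Urod and Cpox fall under 2-fold without scaling.

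**Figure D3:**
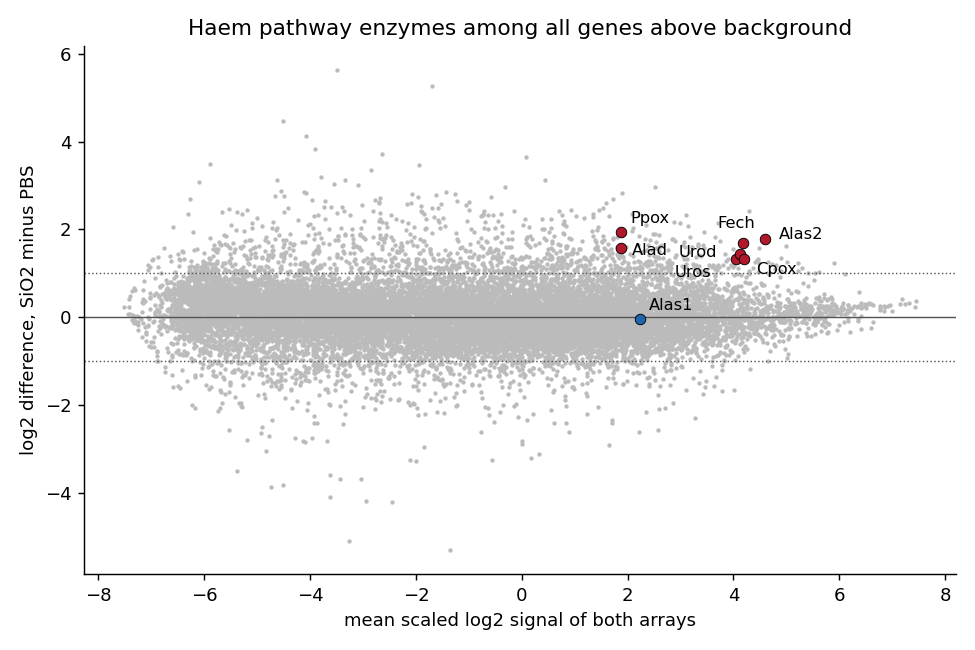
Log2 difference (SiO2 minus PBS) against the mean scaled log2 signal for 16774 genes (grey), with haem pathway members in red and Alas1 in blue. The 7 members that were higher lie above the upper dotted line, which marks 2-fold, and Alas1 lies at -0.03.

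Promoters are shown for both synthases, which differed from each other, and for Cpox, whose window held the most GATA-type letters of the members that were higher. Sequences are from RefSeq on GRCm38.p6. Promoters of 7 of the 8 members, all but Fech, were in that table, 300 bases for each start site, from 250 before it to 50 after. The 250 bases before the start are printed 5′ to 3′ on the gene's strand for Alas2 (chrX:150547167-150547416, plus strand), Cpox (chr16:58669958-58670207, plus strand) and the first start of Alas1 (chr9:106247955-106248204, minus strand). Capitals mark matches on either strand to GATA with A or T before it and A or G after it, the letters that erythroid GATA factors bind, or to CCNCNCCC, a core of Krüppel-like factor (KLF) sites. These letters overlap where runs of C or G repeat them, and CCNCNCCC also overlaps GGGCGG, the SP1 core.
Alas2: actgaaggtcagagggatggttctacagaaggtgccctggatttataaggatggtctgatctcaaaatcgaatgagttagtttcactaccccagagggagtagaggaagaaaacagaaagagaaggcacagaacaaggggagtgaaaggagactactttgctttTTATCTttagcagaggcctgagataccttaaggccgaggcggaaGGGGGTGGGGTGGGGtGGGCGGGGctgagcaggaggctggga
Cpox: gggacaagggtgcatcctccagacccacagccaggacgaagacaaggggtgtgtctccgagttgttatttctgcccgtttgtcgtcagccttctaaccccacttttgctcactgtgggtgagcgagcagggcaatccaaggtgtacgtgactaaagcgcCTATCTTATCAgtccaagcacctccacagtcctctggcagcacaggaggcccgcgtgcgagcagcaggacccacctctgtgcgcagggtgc
Alas1: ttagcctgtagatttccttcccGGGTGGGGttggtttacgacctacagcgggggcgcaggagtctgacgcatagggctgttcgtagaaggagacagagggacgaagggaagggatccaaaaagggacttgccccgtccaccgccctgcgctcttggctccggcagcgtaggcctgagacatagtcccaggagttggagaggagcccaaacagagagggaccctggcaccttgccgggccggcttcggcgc

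The Alas2 window held 1 GATA match, at bases -86 to -81 from the start, and 4 KLF matches from -42 to -19, the first 3 of which overlap. The Cpox window held 3 GATA matches, of which the pair from -91 to -81 shares a base and the third lies after the start and is not printed. Neither start of Alas1 had a GATA match in its window. Of 32851 promoters in the table, 29.8% held at least 1 GATA match, 7.77% at least 2 and 1.76% at least 3. A KLF match is common, in 49.5% of promoters, and 12.5% held at least 4. No GATA match was found in the windows of Alad, Urod and Ppox, and of the starts of Uros only the second held any, with 2.

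Alas1 differed from Alas2 in base composition too. Its windows had 65.3% and 73.3% G and C with 27 and 44 CpG pairs, against 52.3% and 6 CpG pairs for Alas2. The median promoter had 52.7% and 7 CpG pairs. Alas1 also held the palindromic motif of nuclear respiratory factor 1 (NRF1), in 1 place that both of its windows share. That motif occurred in 0.971% of promoters and in none of the windows of the other 6 members searched. Ppox held 4 CCAAT boxes, as 1.06% of promoters held at least 4. None of the 7 members searched held TGANTCA with C or G as its middle base, the letters of the erythroid factor NF-E2, which 5.20% of promoters held. A match describes letters in a window and shows neither binding nor a cause.

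**Figure D4:**
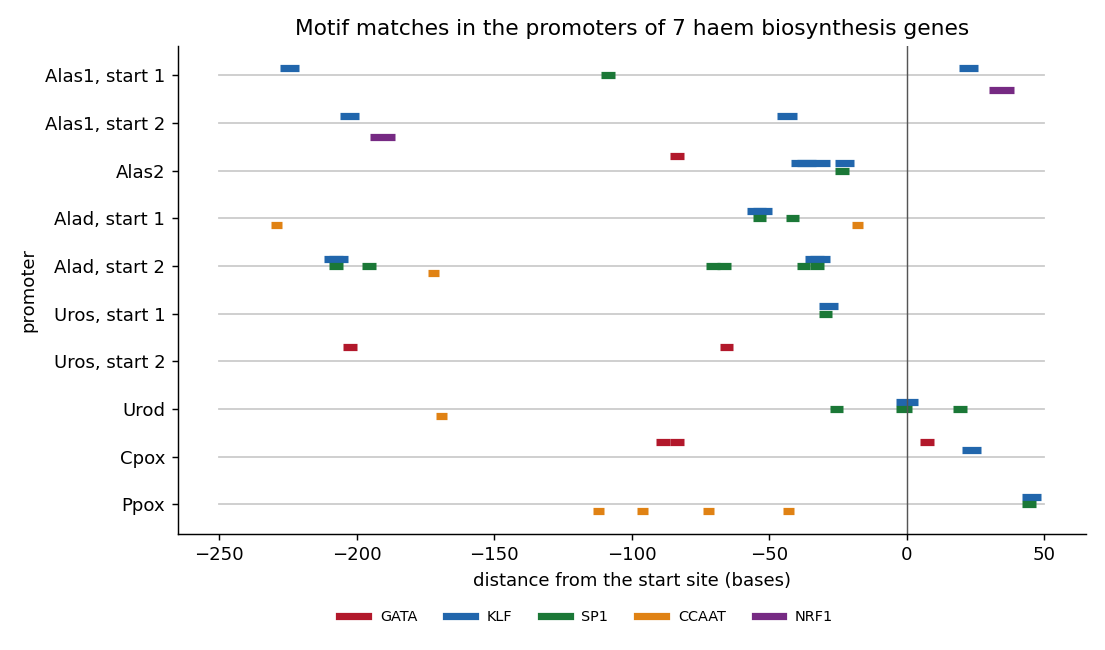
Matches to 5 motifs in the promoters of 7 haem biosynthesis genes, by distance from the start site in bases, with a grey line for each start site's window. GATA matches (red) occur in Alas2, Cpox and the second start of Uros, and the NRF1 match (purple) in Alas1 alone, at 1 place seen in both of its windows.

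Genes that feed the pathway and move its intermediates across mitochondrial membranes were measured as a list, chosen like the others below with earlier results of these data known. Among 26 measured mitochondrial carriers, iron-sulfur cluster genes and related factors, 11 were higher by 2-fold or more and 0 lower by as much. The share that was higher was 42.3%, against 6.62% of all genes. The list's median was 0.63. Fam210b, a mitochondrial protein of erythroid iron handling, was 4.74-fold higher, with a signal of 1494 in the SiO2 pool and 449.9 in the PBS pool. Isca1, an iron-sulfur assembly factor, was 3.93-fold higher and its probes gave 1.77 and 1.98. Abcb6, a porphyrin transporter, was 3.63-fold higher. Slc25a38, which brings glycine into the mitochondrion, was 2.59-fold higher. Slc25a39, a mitochondrial glutathione carrier, was 2.25-fold higher at a low signal, 42.3 in the SiO2 pool and 26.8 in the PBS pool, and was at 0.72 under normexp background correction.

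Some members of that list are known partners of the enzymes and are named here after their values were seen. Slc25a37, the mitochondrial iron importer mitoferrin 1 of erythroid cells, was 2.08-fold higher by its brighter probe. On the log2 scale that probe differed by 1.06 and the dimmer one by 2.16. The brighter probe fell under 2-fold under normexp (0.91), in the authors' deposited values (0.96) and without scaling (0.54). Slc25a28, mitoferrin 2 of other tissues, differed by -0.11 (0.20 with lymphocyte markers centred on 0). Abcb10 and Tmem14c, an inner membrane transporter and a porphyrinogen carrier of erythroid cells, were 2.20-fold and 2.21-fold higher. Lonp1 and Clpx, both parts of mitochondrial proteases that act on aminolevulinate synthase, differed by -0.03 and 0.49, and Lonp1 was at 0.28 with lymphocyte markers centred on 0.

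Of 10 genes that supply glycine and succinyl-CoA, 1 passed 2-fold, on the higher side, and the median was 0.49. That share of 10% lies near the 6.62% of all genes that were higher by as much. The 1 gene was Slc6a9, the plasma membrane glycine transporter, which was 4.40-fold higher. Its signal was 7813 in the SiO2 pool and 2532 in the PBS pool. Its probes gave 2.14 and 2.21. Shmt2, a mitochondrial serine and glycine interconverting enzyme, had the next largest difference of the list, at 0.79.

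Genes of haem breakdown and transport lay on both sides of 0. Among 16 measured, 2 passed 2-fold, both on the higher side, which is 12.5% against 6.62% of all genes. Their median was -0.079, and its sign depends on the setting, at 0.22 under normexp and 0.23 with lymphocyte markers centred on 0. Abcg2, an exporter of porphyrins and haem, was 2.89-fold higher, and the haem-binding protein Hebp1 was 2.27-fold higher. Hmox1, the inducible haem oxygenase, named here after its value was seen, had a signal of 2157 in the SiO2 pool and 5327 in the PBS pool. Its probes gave log2 differences of -0.79 and -1.06. Markers of the red pulp macrophage, the splenic cell that breaks down red cell haem, were below 0 in 12 of 12 measured. With lymphocyte markers centred on 0 it was 10 of 12. With a median of 0.030 over all genes, values below 0 are common. Cd163, named after its value was seen, was dim (15.2 in the SiO2 pool, 28.1 in the PBS pool) and at 0.23 under normexp. At least 2-fold lower were 2 of the 12, the transcription factor Spic by 2.80-fold and the secreted protein Cd5l by 2.33-fold. Of all genes, 3.69% were lower by as much. The median of the 12 was -0.79, or -0.59 with each gene as the mean of its probes. The summed scaled signal of the list was 81.7 in the SiO2 pool and 132 in the PBS pool, in units of the array's 75th percentile.

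Regulators of haem and iron were mixed. Among 22 measured, 9 passed 2-fold, all on the higher side, or 40.9% against 6.62% of all genes. The median was 0.74. Tfrc, the transferrin receptor, was 4.42-fold higher, and Erfe, the erythroid hormone erythroferrone, 4.11-fold higher with probes at 0.88 and 2.04 and a difference of 1.38 under normexp. The erythroid transcription factors Nfe2, Klf1 and Tal1 were 3.30-fold, 3.13-fold and 3.09-fold higher. Named after their values were seen, Gata1 was 2.19-fold higher and Eif2ak1, the haem-regulated kinase, 2.83-fold higher. Also named after their values were seen are Ppargc1a and Nrf1. Ppargc1a, a coactivator of Alas1 in liver, had a low signal of 21.5 in the SiO2 pool and 54.0 in the PBS pool, and its difference was -0.82, or -0.08 under normexp. Nrf1 was at 0.56.

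The enzymes differed beside the markers of red cell precursors. Among 21 erythroid genes measured, 17 passed 2-fold, all on the higher side, or 81.0% against 6.62% of all genes. The list's median was 1.62. The median of the 8 members was 1.51. The summed scaled signal of the erythroid list was 354 in the SiO2 pool and 178 in the PBS pool. That of the 8 members was 179 in the SiO2 pool and 64.5 in the PBS pool. The brightest probes weigh most in such sums, and levels of different probes are not comparable. The sums therefore do not rank the lists. Trim10, Epb42, Trim58 and Icam4 were among the 5 largest differences of the list, between 2.25 and 2.82, with Trim58 at 1.70 under normexp. Epb42 is a protein of the red cell membrane skeleton, and Icam4 is a red cell adhesion protein. Hemgn, an erythroid nuclear protein named after its value was seen, was the 1 gene of the list below 0, at -0.42, with a signal of 18043 in the SiO2 pool and 34530.4 in the PBS pool. In RNA of a whole organ, more cells of a type and more of a message per cell cannot be told apart. The part of erythroid cell number in the difference of the enzymes was not tested.

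**Figure D5:**
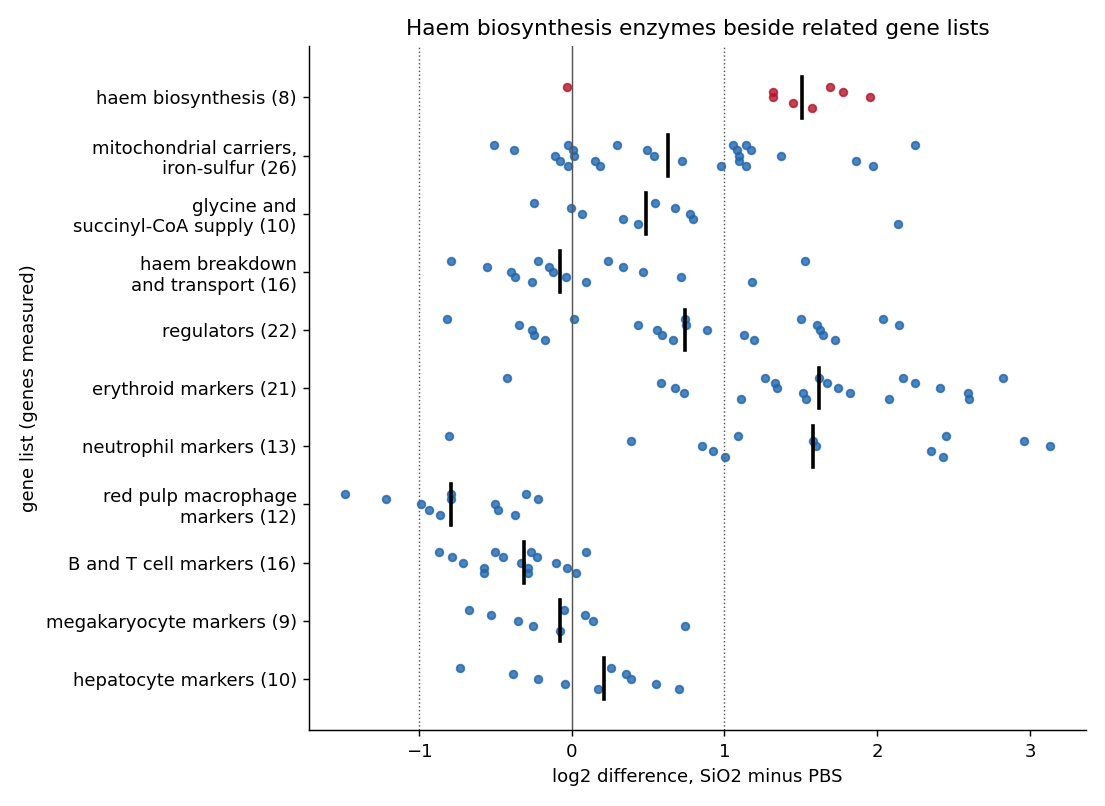
Log2 difference (SiO2 minus PBS) of each gene in the haem biosynthesis list (red) and in related gene lists and marker lists (blue); black bars are list medians, dotted lines mark 2-fold and the number measured is in brackets. The 7 higher enzymes, from 1.32 to 1.95, and Alas1 at -0.03 all lie within the ranges of both the erythroid markers (-0.42 to 2.82) and the neutrophil markers (-0.80 to 3.13).

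Most neutrophil markers were higher as well, though not all. Among 13 neutrophil markers measured, 9 passed 2-fold, all on the higher side, or 69.2% against 6.62% of all genes. The median was 1.58, and the summed scaled signal was 199 in the SiO2 pool and 87.4 in the PBS pool. The granule proteins Ngp, Ltf, Lcn2, Camp and Mmp8 led the markers, between 2.35 and 3.13. Named after their values were seen, Cxcr2, a chemokine receptor of mature neutrophils, was below 0 at -0.80 (-0.49 with lymphocyte markers centred on 0), with a signal of 52.0 in the SiO2 pool and 129.6 in the PBS pool, and S100a9, a calcium-binding protein of neutrophils, was at 0.39 (-0.13 unscaled). Of 17 haem-containing proteins and related genes measured, 3 were at least 2-fold higher, or 17.6% against 6.62% of all genes. They were the granule peroxidases Epx (6.77-fold) and Mpo (2.99-fold) and catalase, Cat (2.61-fold). Mpo is counted among the neutrophil markers too. Epx was dim, with a signal of 53.9 in the SiO2 pool and 11.4 in the PBS pool, and stood at 1.15 under normexp. The median of that list was -0.19, or 0.17 under normexp and 0.12 with lymphocyte markers centred on 0. The part of neutrophils in the difference of the enzymes was not tested.

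Markers of lymphocytes, megakaryocytes and hepatocytes were set beside the members as other cells that spleen RNA could hold. Of 16 B and T cell markers measured, 0 differed 2-fold and 14 were below 0, with a median of -0.31 (-0.82 unscaled). Their largest differences, by the brightest probe, were -0.87 for Cd8a and -0.79 for Pax5. The dimmer probe of Cd8a gave -0.38, and that of Pax5 gave -1.19, which is past 2-fold. All 16 were well above background in both pools. Ms4a1, a B cell surface protein named after its value was seen, had a signal of 10659.7 in the SiO2 pool and 20768 in the PBS pool. After scaling Ms4a1 differed by -0.45, or -0.14 with lymphocyte markers centred on 0. Of 9 megakaryocyte markers, 0 differed 2-fold and the median was -0.076 (0.23 with lymphocyte markers centred on 0), with Gp9 at 0.74 and Gp1ba at -0.67 as the largest differences. Of 14 hepatocyte markers, 10 were above background on at least 1 array, 0 of them differed 2-fold and their median was 0.21 (-0.30 unscaled). Serpina1a, which has near-identical gene copies and is uncertain for that reason, was at -0.73 and Cyp2e1 at 0.70. Albumin, Alb, also named after its value was seen, was dim, with a signal of 32.8 in the SiO2 pool and 61.1 in the PBS pool. After scaling Alb differed by -0.39, or 0.06 under normexp. Not all of the list were dim. Apoa2, likewise named after its value was seen, had a signal of 9014 in the SiO2 pool and 14947 in the PBS pool. Its scaled difference was -0.22.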

How the data were processed

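Per the labels, each array was hybridised with Cy3-labelled cRNA of a pool of 5 spleens. The deposited scanner files hold each spot's intensity on a linear scale, made with Agilent Feature Extraction 11.0.1.1 per the file headers; version 9.1 stands in the submitters' processing notes. Per the file headers, that software subtracted the background to give the processed intensity. The authors' deposited value table holds log2 values for 26049 probes, whose medians were 5.68 in both columns. They followed log2 of the scanner intensity with slopes of 1.01 (SiO2) and 0.994 (PBS), so scale and direction are known, while how the columns were equalised is not stated in the sources used here.

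Control spots and spots with an outlier flag (148 on the SiO2 array, 145 on the PBS array) were left out, repeated spots averaged, and log2 intensity set relative to the 75th percentile of the array. Of 39398 probes, 27217 were named by matching unversioned accessions to the RefSeq table of GRCm38.p6, used for names and promoters only. The files give no probe sequences, so where a probe lies in its transcript was not read. A gene was its brightest probe among those clearly above background in either pool, and a value not above background was raised to the lowest value that was. Genes were counted at 2-fold. Members and lists were chosen with earlier results of these data known. Named genes were all members, up to 5 per direction at 2-fold from each list or else its largest differences, and Gapdh, Actb and Hprt; others are marked as chosen after their values were seen. Computation used Python 3.11.15, numpy 2.4.6, pandas 2.3.3 and limma 3.58.1 in R 4.3.3, tested on simulated data. Normexp used median spot signals with an offset of 50, since the files used hold no mean signal. Sequences of proteins were not used here, and some genes the rule names are not reported here.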

Additional observations from a re-analysis of the deposited data

How the results depend on the processing

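Across 10 alternatives, 9 fixed earlier and 1 (no scaling) added after seeing the data, the gap of Alas1 minus Alas2 stayed between -1.81 and -1.69. Median scaling, lymphocyte centring and no scaling shift both genes alike, and the filter settings touch neither gene. Those alternatives could not move the gap, so only the others bear on it. The median difference of the 8 members was 1.51. It moved to 1.82 with lymphocyte markers centred on 0 and to 0.997 without scaling, where 4 members were past 2-fold in place of 7; both settings shift 1 array by construction, by 0.31 and -0.51 on the log2 scale. The median of all genes was 0.34 and -0.48 under them, and 0.18 under normexp. Under each of the other 7 alternatives fixed earlier, 7 members stayed past 2-fold, and 6 of the 7 with a row did in the authors' deposited values. Of those alternatives, the filter settings and the mean over probes could not move the 7 higher members. Each of these members has 1 probe, above background on both arrays. Median scaling only shifts 1 array against the other.

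Counts of listed genes past 2-fold moved by more than 1.5 times as follows. Under normexp, 6 mitochondrial genes were higher in place of 11. In the authors' deposited values, which hold fewer of the listed genes, 5 regulators, 4 neutrophil genes and 1 breakdown gene were higher and 1 breakdown gene lower. With lymphocyte markers centred on 0, the higher counts were 3 for glycine and succinyl-CoA supply, 5 for haem-containing proteins, 1 for hepatocyte and 1 for megakaryocyte markers, and 1 red pulp macrophage marker was lower. Quantile normalization left 4 red pulp macrophage markers lower, and no filter gave 1 higher hepatocyte marker and 1 lower haem-containing protein. Without scaling, 3 mitochondrial genes and 1 breakdown gene were higher, and the lower counts were 8 for red pulp macrophage, 6 for B and T cell, 2 each for megakaryocyte, breakdown and haem-containing genes, and 1 each for mitochondrial, regulator, hepatocyte and neutrophil genes. Where a change follows neither from a shift nor from fewer genes, the cause was not tested. Dim probes limit the rest, such as Epx and Ppargc1a, whose values moved with the background correction. No paired analysis was possible because each group has 1 array.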
